A study of Mus musculus with 4 samples.

Results

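The numbered Prss genes are named after serine proteases, and 39 of the 112302 entries in the deposited tables carry a name made of the letters PRSS and digits alone. All 39 matched 1 protein-coding mouse gene each in the GENCODE M21 annotation, by symbol. Their RNA levels were compared across testis libraries of the BALB/C mouse strain, from 2 fetal stages, embryonic days 14 (E14) and 18 (E18), and from animals aged 3 weeks and 6 months, with a single library for each. The labels give no genotype or treatment, the tissue RNA came from a commercial supplier, and the number of animals behind each library is not given in the sources used here. Levels are in RPKM, read counts divided by gene model length in kilobases and by library size. Since every stage rests on a single library, no replicate error and no p-value could be given, and all intervals below are 95% intervals of counting error only.

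Most Prss proteins share the fold of trypsin, in which a histidine, an aspartate and a serine together cut a peptide bond. They are made as inactive precursors that another protease cuts open, and inhibitor proteins keep them silent until they are needed. In the testis, family members are known from the acrosome, the secretory vesicle of the sperm head, and from the surface of germ cells and sperm. Other members work in the pancreas, in epithelia, in mast cells and neutrophils, in the uterus and in the brain.

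The tissue label was checked with 10 Sertoli cell markers, of which 3, 9, 9 and 8 reached 1 RPKM at E14, E18, 3 weeks and 6 months. The E14 library also held 6 liver markers that summed to 314 RPKM and 7 muscle and cartilage markers that summed to 236, against 70.6 and 44.3 at E18 and at most 1.81 after birth. In the E18 library, 7 kidney tubule markers summed to 49.5 RPKM and 7 bladder urothelium markers to 53.7, against 3.21 and 26.5 at E14. In the 3 weeks library, 8 epididymis markers summed to 66.5 RPKM, mostly from Crisp1 and Spink8. Values given for each stage are those of the library labelled testis, and the part of these other tissues in them was not tested. The library totals behind the RPKM lay between 33952471 reads at 3 weeks and 38903334 at E14.

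Prss RNA was low in both fetal libraries and higher after birth, most of all at 6 months. The RPKM of the 39 genes summed to 11.4, 23.4, 90.6 and 288 at E14, E18, 3 weeks and 6 months. At least 1 RPKM was reached by 4, 5, 17 and 22 genes at these stages, in the same order. Over all 112302 entries it was reached by 22135, 23658, 33267 and 29669, so more entries reached it after birth there too. In all, 25 Prss genes reached 1 RPKM in at least 1 library and 14 in none. Of the 20462 protein-coding symbols, 12661 reached it, a like share. Of the 25, 16 had their highest level at 6 months, 4 at 3 weeks, 4 at E18 and 1 at E14. The stage of the highest level was not counted over all entries. In RNA from whole tissue, a change in the share of a cell type and a change in RNA per cell cannot be told apart, here and in every comparison below.

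**Figure D1:**
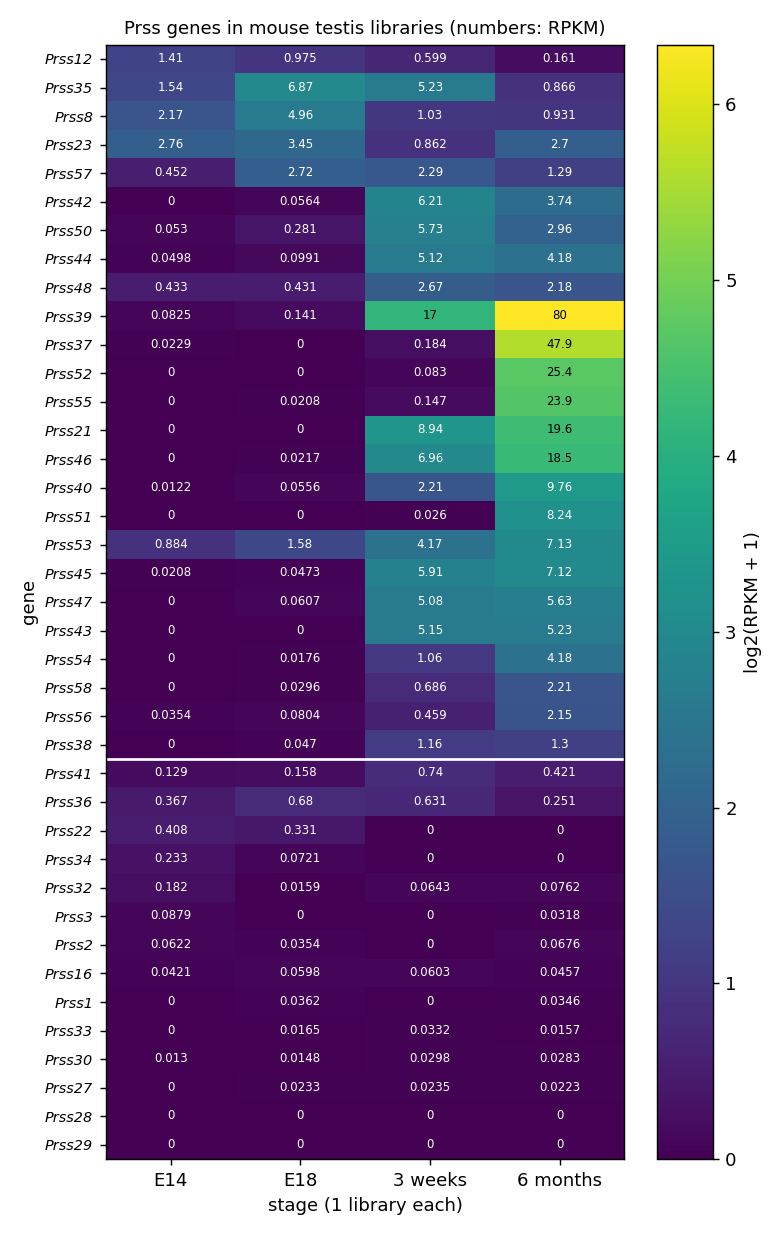
Level of each of the 39 Prss genes (rows) at E14, E18, 3 weeks and 6 months (columns, 1 library each), with log2(RPKM + 1) as colour and RPKM as the printed number. Genes above the white line reached at least 1 RPKM in a library and are ordered by the stage of their highest level. Prss39 at 6 months has the highest level, 79.96 RPKM.

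A gene was counted as higher or lower where log2(RPKM + 1) differed by at least 1, that is 2-fold. The counts were set beside those of all 42964 entries that reached 1 RPKM in a library and of all 20462 protein-coding symbols with no filter. The adjacent comparisons share a library, so that the E18 and 3 weeks libraries each enter more than 1 count. Between E18 and E14, 2 of the 39 genes were higher, Prss35 and Prss57, and 0 were lower. Over the entries 2.17% were higher and 1.34% lower, and over the protein-coding symbols 2.19% and 1.01%. Prss8, at 0.91, was just outside the limit. The 10 Sertoli cell markers summed to 10.4 RPKM at E14 and 102 at E18, although Sox9 was lower at E18, at 2.12 against 4.00. The 7 Leydig cell markers summed to 7.05 RPKM at E14 and 120 at E18. The part of these differences between the libraries in the levels of Prss35 and Prss57 was not tested.

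Between 3 weeks and E18, 14 of the 39 genes were higher (35.9%) and 2 were lower, Prss8 and Prss23 (5.13%). Over the entries 32.0% were higher and 10.5% lower, and over the protein-coding symbols 14.9% and 8.17%. The 14 were, from the largest difference, Prss39, Prss21, Prss46, Prss42, Prss45, Prss43, Prss47, Prss44, Prss50, Prss40, Prss48, Prss38, Prss54 and Prss53. With no filter on either side, 12.2% of all 112302 entries were higher and 4.04% lower. Scaling over ribosomal protein genes gave 14 Prss genes higher and 0 lower, and under it 51.4% of the entries of at least 1 RPKM were higher and 2.43% lower. Spermatocyte markers summed to 888 RPKM at 3 weeks and 50.6 at E18, and all 10 reached 1 RPKM at 3 weeks, against 3 at E18. H2afx made up most of the sum at E18, at 43.4 RPKM, and stood at 45.8 at 3 weeks. The median difference over the 39 was 0.12, against 0.000923 over the protein-coding symbols.

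Between 6 months and 3 weeks, 10 of the 39 were higher (25.6%) and 1 was lower (2.56%). Over the entries 9.73% were higher and 14.1% lower, and over the protein-coding symbols 5.90% and 4.87%. With no filter, 3.72% of all entries were higher and 5.40% lower. Rescaling by the median of ratios gave 13 Prss genes higher and 1 lower, and turned the balance of the entries to 17.7% higher and 4.39% lower. The 10 were Prss37, Prss52, Prss55, Prss51, Prss39, Prss40, Prss54, Prss46, Prss56 and Prss21, by differences of 5.37 to 1.05. The median over the 39 was 0.02, against -0.05 over the protein-coding symbols. In this comparison the 10 elongating spermatid markers summed to 7151 RPKM at 6 months and 39.6 at 3 weeks, and the 10 round spermatid markers to 697 at 6 months and 133 at 3 weeks. All 20 reached 1 RPKM at 6 months, against 7 and 5 at 3 weeks. The 10 spermatocyte markers summed to 749 at 6 months and 888 at 3 weeks, but differed in direction. Sycp1, Sycp2, Sycp3, Syce1, Meiob and Piwil1 were lower at 6 months, with Sycp3 at 37.6 RPKM against 147 at 3 weeks. Ldhc, Hspa2, Ovol1 and H2afx were higher, with Ldhc at 319 RPKM against 227. The part of these differences in the Prss levels was not tested.

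Among these genes the postnatal levels took 3 main forms. Prss37 and the neighbours Prss55, Prss51 and Prss52 were near 0 until 3 weeks and high at 6 months. Prss39, Prss40, Prss21 and Prss46 were present at 3 weeks and at least 2-fold higher at 6 months, Prss21 only by a narrow margin. Prss42, Prss43, Prss44, Prss45 and Prss50 were at least 2-fold higher at 3 weeks than at E18 and differed by less than 2-fold between 6 months and 3 weeks. A gene of each form, and the gene with the highest level, is shown here by the 250 bases before its annotated start. The sequences are from RefSeq on GRCm38.p6, which is the C57BL/6J genome and not BALB/C, and run 5′ to 3′ on the gene's strand with each CG dinucleotide in capitals.
Prss37, chr6:40519509-40519758, minus strand: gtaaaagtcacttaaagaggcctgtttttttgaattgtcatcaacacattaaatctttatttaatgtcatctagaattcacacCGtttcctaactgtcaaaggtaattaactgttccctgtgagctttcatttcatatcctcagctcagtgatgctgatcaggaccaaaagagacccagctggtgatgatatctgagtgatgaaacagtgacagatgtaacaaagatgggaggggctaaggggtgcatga
Prss39, chr1:34498162-34498411, plus strand: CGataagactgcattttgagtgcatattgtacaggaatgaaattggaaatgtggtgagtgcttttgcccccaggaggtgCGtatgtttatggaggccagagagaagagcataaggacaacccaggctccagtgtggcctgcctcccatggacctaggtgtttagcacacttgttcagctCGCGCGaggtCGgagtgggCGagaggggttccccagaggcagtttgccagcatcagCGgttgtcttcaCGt
Prss21, chr17:23867822-23868071, plus strand: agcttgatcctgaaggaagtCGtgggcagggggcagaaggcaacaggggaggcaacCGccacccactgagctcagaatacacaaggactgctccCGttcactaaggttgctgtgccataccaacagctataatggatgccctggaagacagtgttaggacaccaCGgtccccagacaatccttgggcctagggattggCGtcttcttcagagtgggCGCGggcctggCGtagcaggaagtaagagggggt
Prss42, chr9:110797935-110798184, plus strand: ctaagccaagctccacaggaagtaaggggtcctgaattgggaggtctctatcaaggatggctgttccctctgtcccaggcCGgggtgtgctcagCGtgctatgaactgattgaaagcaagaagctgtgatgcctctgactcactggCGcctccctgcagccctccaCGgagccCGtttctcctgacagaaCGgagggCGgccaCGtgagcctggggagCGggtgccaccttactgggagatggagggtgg

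The Prss37 window held 1 CG dinucleotide, against 9 for Prss39, 8 for Prss21 and 9 for Prss42. The median over all 32851 RefSeq windows of this length was 6, and 18.8% of them held at most 1. G and C made up 39.6% of the Prss37 window and 53.6%, 57.6% and 60.4% of the windows of Prss39, Prss21 and Prss42. A window was listed for 29 of the 39 genes, 17 of them among the 25 that reached 1 RPKM. It was not listed for Prss55, Prss51 or Prss52. The other CG-poor windows, with at most 1, belonged to Prss58, to the trypsin genes Prss1, Prss2 and Prss3, and to Prss33.

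Letters of motifs known from testis promoters were searched on both strands of the 250 bases. TAACNG, the core bound by MYB factors, occurred in a window of 6 of the 29 genes and in 19.8% of all windows. Prss37 held 2 matches, at 160 and 143 bases before the start. GTTGCC, a part of the site of RFX factors, occurred in 3 of the 29 genes (Prss21, Prss46 and Prss47) and in 10.4% of all windows. Prss21 held 2 matches, at 212 and 200 bases before the start. TGACG, part of the cyclic AMP response element, occurred in 5 genes and in 17.8% of windows. The full element TGACGTCA, which contains it, occurred in 0 genes and in 1.55% of windows. TATAAA occurred in 5 genes, Prss1, Prss2, Prss3, Prss28 and Prss29, and in 12.4% of windows. The matches describe these letters alone, not binding.

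The genes that appeared at 6 months were led by Prss37, whose loss leaves male mice infertile with sperm that fail to pass into the oviduct. Across E14, E18, 3 weeks and 6 months, Prss37 stood at 0.0229, 0, 0.184 and 47.9 RPKM. Behind these levels were 1, 0, 7 and 1927 reads. The level at 6 months was thus 261-fold that at 3 weeks (interval 126 to 650), and the remaining libraries held at most 7 reads.

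Prss55, Prss51 and Prss52 lie side by side on chromosome 14 within 38.3 kb and shared this form. Prss55, a membrane-anchored protease that sperm also need to enter the oviduct in mice, stood at 0, 0.0208, 0.147 and 23.9 RPKM at E14, E18, 3 weeks and 6 months, and was 162-fold higher at 6 months than at 3 weeks (78.6 to 405). Prss52 stood at 0, 0, 0.0830 and 25.4 RPKM. It had 967 reads at 6 months and 3 at 3 weeks, a ratio of 306 (104 to 1485). For Prss51, next to both, the levels were 0, 0, 0.0260 and 8.24 RPKM. With 334 reads at 6 months and 1 at 3 weeks, its ratio of 317 has an interval of 56.5 to 12548. All 3 were thus high in the 6 months library alone, and none had more than 7 reads in any other.

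Prss51 and Prss55 overlap on opposite strands, but no base of their annotated exons is shared. Of the 3 other protein-coding genes with values within 100 kb, 4930578I06Rik stood at 0, 0.0272, 4.42 and 48.5 RPKM across the stages, Msra between 0.671 and 1.24 and Rp1l1 at or below 0.00436. These 3 were looked up after the values of the Prss genes had been seen. Prss37 itself lies apart, on chromosome 6.

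**Figure D2:**
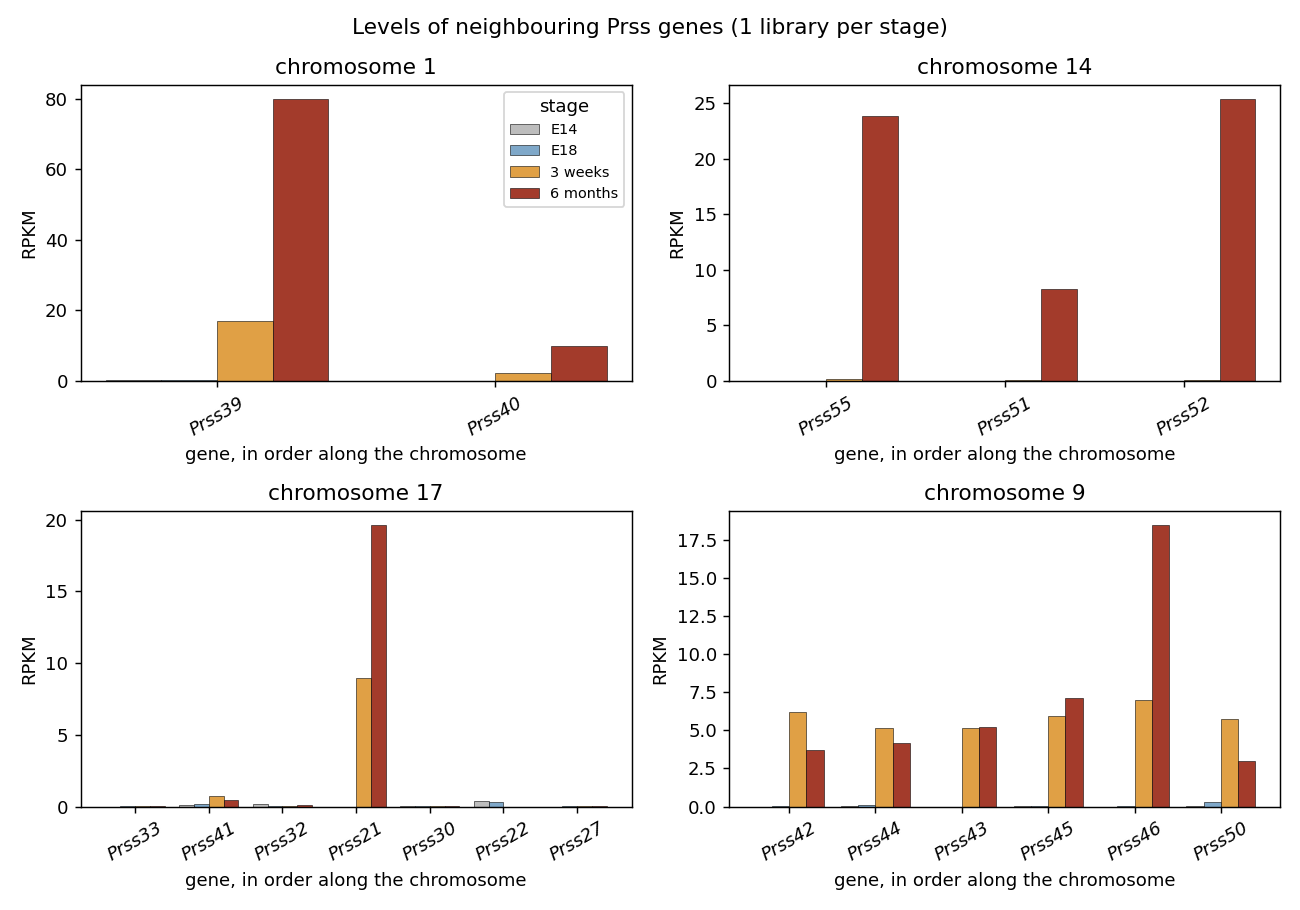
RPKM of neighbouring Prss genes (bars, 1 library per stage, coloured by stage) in their order along chromosomes 1, 14, 17 and 9, with a separate RPKM scale in each panel. On chromosome 14 all 3 genes are high at 6 months alone, while on chromosome 9 all 6 lie between 5.12 and 6.96 RPKM at 3 weeks and on chromosome 17 Prss21 stands far above its 6 neighbours.

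Prss39 and Prss40 encode the acrosomal proteases Tesp1 and Tesp2 and lie within 62.5 kb on chromosome 1. Prss39 had the highest Prss level at both postnatal stages, with 0.0825, 0.141, 17.02 and 79.96 RPKM at E14, E18, 3 weeks and 6 months. It alone made up 27.7% of the summed Prss RPKM at 6 months. Its level at 6 months was 4.70 times that at 3 weeks (4.34 to 5.10). Prss40 stood lower, at 0.0122, 0.0556, 2.21 and 9.76 RPKM, with nearly the same ratio of 4.41 (3.71 to 5.27). Both had at most 6 reads in each fetal library. Cfc1, on the other strand, shares 13.7% of the annotated exon bases of Prss40, and stood at 0, 0.113, 0.511 and 1.10 RPKM.

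Prss21 encodes testisin, a protease anchored to the membrane of germ cells and sperm. It had 0 reads at E14 and at E18, where 3 reads would be 0.0705 and 0.0801 RPKM. It stood at 8.94 RPKM at 3 weeks and 19.6 at 6 months. By the interval of the ratio, the 3 weeks level was at least 90.2-fold higher than that at E18. Between 6 months and 3 weeks the ratio was 2.20 (1.93 to 2.51). The difference on the log2(RPKM + 1) scale was 1.05, and fell short of the limit when libraries were rescaled to an equal sum (0.99) or to the protein-coding sum (0.83). In the same row of 7 Prss genes on chromosome 17, within 213 kb, the other 6 stayed below 1 RPKM in all 4 libraries. They are Prss33, Prss41, Prss32, Prss30, Prss22 and Prss27.

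A row of 6 testis genes on chromosome 9, within 66.5 kb, was present at 3 weeks at like levels. Prss42 and Prss43 (Tessp2 and Tessp3), which mouse spermatocytes need to pass through meiosis in cultured testis, had 6.21 and 5.15 RPKM at 3 weeks, against 0.0564 and 0 at E18. Prss44, Prss45 and Prss46 had 5.12, 5.91 and 6.96 RPKM at 3 weeks, against 0.0991, 0.0473 and 0.0217 at E18. Prss50, whose product carries threonine in place of the catalytic serine, had 5.73 RPKM at 3 weeks, against 0.281 at E18. At E14, Prss42, Prss43 and Prss46 were at 0, and Prss44, Prss45 and Prss50 stood at 0.0498, 0.0208 and 0.0530 RPKM. All 6 were past 2-fold at 3 weeks on the log2(RPKM + 1) scale, by differences of 2.39 for Prss50 to 2.96 for Prss46. Among the 6, Prss50 had the most reads at E18, 14, against 3 at E14 (ratio 5.30, interval 1.48 to 28.8).

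At 6 months the same row had spread out. Prss46 was higher, at 18.5 RPKM, or 2.65 times its level at 3 weeks (2.33 to 3.03). Prss43 stood at 5.23 RPKM, a ratio of 1.02 (0.876 to 1.18), and Prss45 at 7.12, a ratio of 1.20 (1.02 to 1.43). Prss44 at 4.18 RPKM had a ratio of 0.816 (0.699 to 0.953). Prss42 stood at 3.74 RPKM and Prss50 at 2.96, ratios of 0.601 (0.503 to 0.718) and 0.516 (0.421 to 0.630), and neither was past the 2-fold limit on the log2(RPKM + 1) scale. Rescaling by the median of ratios left Prss42 and Prss50 lower by 0.03 and 0.21 on the log2 scale, against differences of -0.61 and -0.77 as deposited, and gave Prss44 0.33 where the deposited values give -0.24. Ribosomal protein scaling gave Prss44 0.04. The 7 other protein-coding genes with values within 100 kb of the row lay between 0.0140 and 2.38 RPKM at 6 months and between 0 and 3.19 at 3 weeks.

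**Figure D3:**
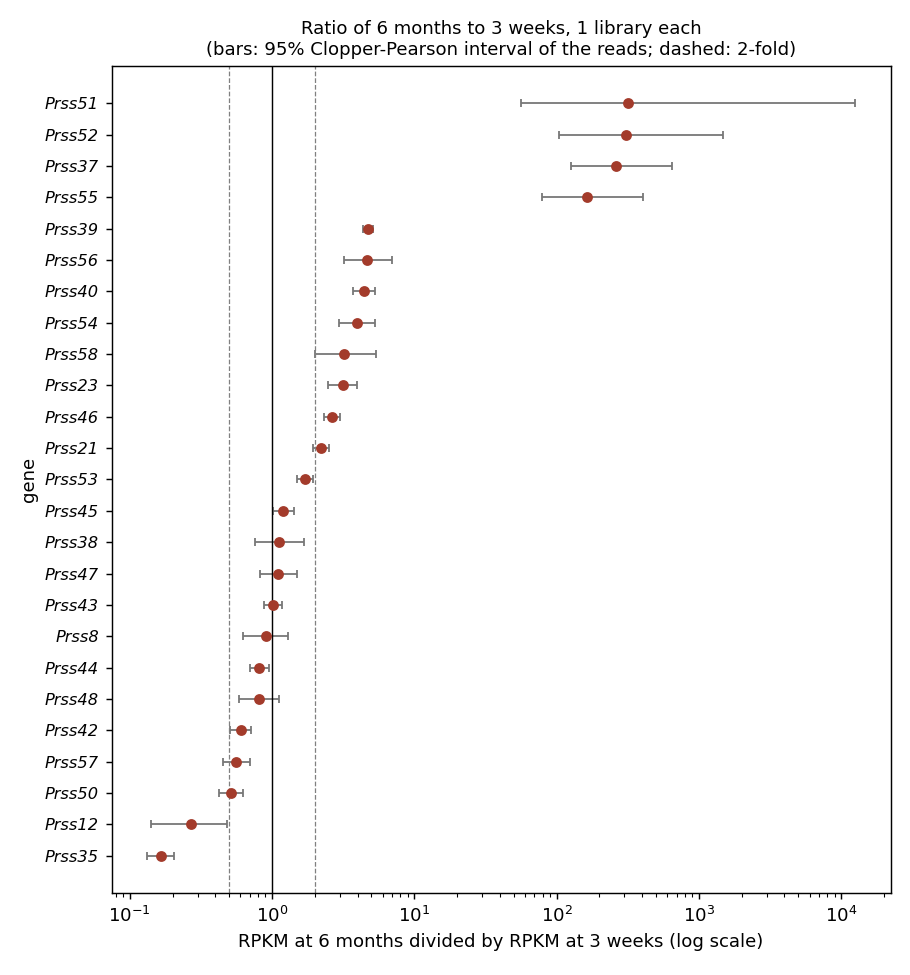
Ratio of RPKM at 6 months to RPKM at 3 weeks on a log axis for the 25 Prss genes of at least 1 RPKM in a library (points), with 95% Clopper-Pearson intervals of the recovered reads (bars). The 4 genes at the top, Prss51, Prss52, Prss37 and Prss55, have ratios of 162 to 317, and the next, Prss39, has 4.70.

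The remaining postnatal genes were scattered over other chromosomes. Prss54 stood at 0, 0.0176, 1.06 and 4.18 RPKM and Prss56, known for its part in eye growth, at 0.0354, 0.0804, 0.459 and 2.15. Both were past 2-fold between 6 months and 3 weeks, with ratios of 3.94 (2.96 to 5.31) and 4.69 (3.23 to 6.99), although Prss56 was at 0.92, short of the limit, when scaled to the protein-coding sum. Prss58 stood at 0, 0.0296, 0.686 and 2.21 RPKM and had a ratio of 3.22 (1.998 to 5.37), short of the limit with the pseudocount of 1.

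Prss47 and Prss38 appeared at 3 weeks and stayed at a like level. Prss47 stood at 0, 0.0607, 5.08 and 5.63 RPKM and Prss38 at 0, 0.0470, 1.16 and 1.30. The ratios of 6 months to 3 weeks were 1.11 (0.818 to 1.504) and 1.12 (0.754 to 1.68). An antisense gene, Gm15755, covers 13.1% of the exon bases of Prss38 and had 0.678 RPKM at 6 months and 0.626 at 3 weeks. Prss48 was already present before birth, at 0.433 RPKM at E14 and 0.431 at E18, and stood at 2.67 at 3 weeks and 2.18 at 6 months.

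Prss53, which encodes a protein with more than 1 protease domain, was measured at every stage, at 0.884, 1.58, 4.17 and 7.13 RPKM. The difference between 3 weeks and E18, 1.00 on the log2 scale, was the smallest past the limit. Gm21974, a gene model on the same strand, shares 76.7% of the annotated exon bases of Prss53 and stood at 2.09, 3.49, 0.911 and 0.864 RPKM. Zfp646, on the other strand, shares 7.31% and stood at 3.13, 3.85, 27.2 and 35.9 RPKM. Reads of these genes cannot be told apart without the counting rule, which is not given in the sources used here.

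The genes with their highest level before birth have known roles outside germ cells. Prss35 and Prss23, both known from the follicle of the mouse ovary, differed in form. Prss35 stood at 1.54, 6.87, 5.23 and 0.866 RPKM at E14, E18, 3 weeks and 6 months. It was past 2-fold higher at E18 than at E14 (4.47-fold, 3.81 to 5.26) and was 6.04-fold lower at 6 months than at 3 weeks (4.88 to 7.55). With the pseudocount of 1 it was the only Prss gene past the limit in that direction, although RPKM was also 3.73-fold lower for Prss12 (2.07 to 7.12) and 2.51-fold lower for Prss36 (1.60 to 4.02). Prss23 stood at 2.76, 3.45, 0.862 and 2.70 RPKM, so its low point was at 3 weeks. It was 3.998-fold lower at 3 weeks than at E18 (3.20 to 5.03) and 3.13 times higher at 6 months than at 3 weeks (2.49 to 3.96). That last difference, 0.99 on the log2(RPKM + 1) scale, fell just short of the limit. The antisense gene Prss23os covers 22.9% of the exon bases of Prss23.

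Prss8 encodes prostasin, which activates the sodium channel of epithelia. It stood at 2.17, 4.96, 1.03 and 0.931 RPKM, the highest at E18. The level at 3 weeks was 4.82-fold lower than at E18 (3.68 to 6.40). Kat8, on the other strand, shares 6.59% of the exon bases of Prss8 and stood at 1.86, 2.33, 9.82 and 16.2 RPKM, an order unlike that of Prss8. Of 7 bladder urothelium markers, 0 reached 1 RPKM at 3 weeks, against 6 at E18, with summed RPKM of 26.5, 53.7, 1.52 and 0.431 across the stages. Upk3a was at 0 at 3 weeks and Krt5 at 6 months. The 7 kidney tubule markers summed to 3.21, 49.5, 2.13 and 1.86 RPKM, and all 7 reached 1 RPKM at E18, with Slc34a1 at 0 at 3 weeks. Their part in the level of Prss8 was not tested.

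Prss57 encodes neutrophil serine protease 4. It stood at 0.452, 2.72, 2.29 and 1.29 RPKM and was 6.02-fold higher at E18 than at E14 (4.44 to 8.32). Fstl3, which encodes an inhibitor of activin, lies on the other strand and shares 40.7% of the annotated exon bases of Prss57. Its levels were 0.757, 4.23, 2.98 and 2.10 RPKM, the same order of stages. Without strand in the counting, which is not stated, reads of Prss57 and Fstl3 cannot be told apart.

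Prss12, or neurotrypsin, which acts at synapses, stood at 1.41, 0.975, 0.599 and 0.161 RPKM. It was the only one of the 25 genes with its highest level at E14. No step between adjacent stages was past the limit with the pseudocount of 1. With a pseudocount of 0.1 the difference between 6 months and 3 weeks was -1.42, past the limit.

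**Figure D4:**
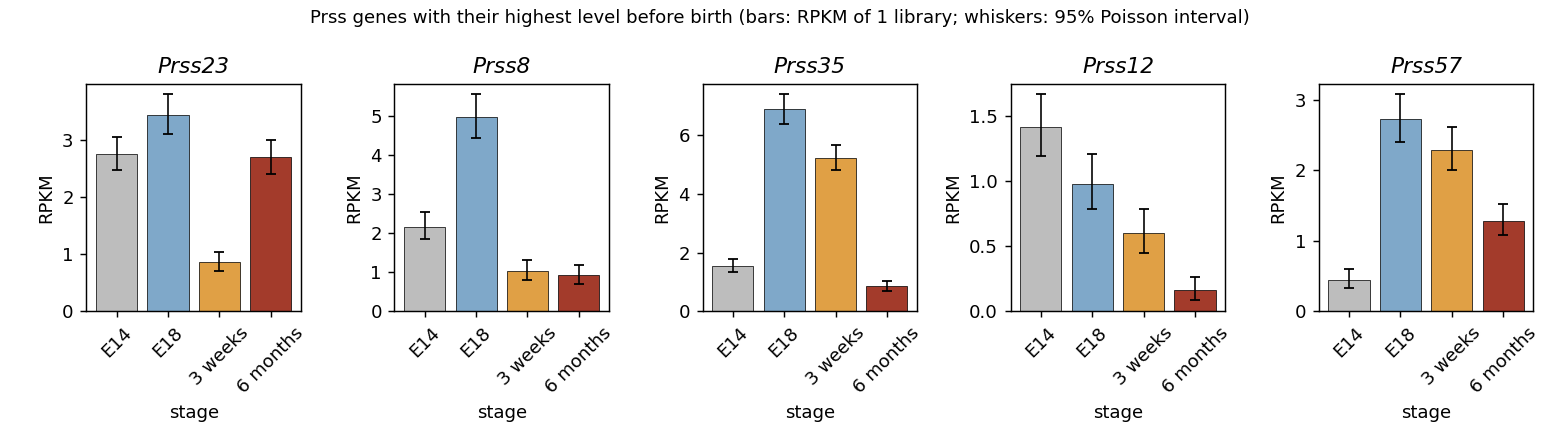
RPKM at E14, E18, 3 weeks and 6 months (bars, 1 library each) of the 5 Prss genes with their highest level before birth, with 95% Poisson intervals of the recovered reads as whiskers and a separate RPKM scale in each panel. Prss35, Prss8, Prss57 and Prss23 are highest at E18, Prss12 at E14, and Prss23 is lowest at 3 weeks.

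The 14 genes below 1 RPKM in all libraries include most of the digestive and blood cell proteases. Prss28 and Prss29, implantation proteases of the uterus, were listed at 0 throughout. The pancreatic trypsins Prss1, Prss2 and Prss3 had at most 3 reads in any library, and their highest levels were 0.0362, 0.0676 and 0.0879 RPKM. In the E14 library, 2 of 10 pancreatic acinar markers reached 1 RPKM, Ctrb1 at 11.1 and Cpa1 at 4.02, and the 10 summed to 17.3, 2.94, 1.68 and 1.19 RPKM across the stages. Trypsin copies outside the numbered names were the entries Try4 and Try5, with 1.01 and 2.196 RPKM at 6 months, against 0.0367 and 0.163 at 3 weeks. Try10 stayed at or below 0.0628 RPKM. These copies were looked up after values had been seen, and levels of the trypsin entries are uncertain because near-identical copies may share reads.

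Prss34, a protease of mast cells and basophils, stood at 0.233, 0.0721, 0 and 0 RPKM, from 11, 3, 0 and 0 reads. The 8 mast cell markers summed to 8.55, 8.72, 1.76 and 1.80 RPKM. Mcpt4, Tpsab1, Fcer1a and Ms4a2 were at 0 at 3 weeks, but Mcpt4 was also at 0 at E14 and Fcer1a at E18. Hdc made up most of the postnatal sums, at 0.571, 2.30, 1.66 and 1.52 RPKM across the stages. The part of mast cells in the level of Prss34 was not tested. Prss22, an epithelial tryptase, was likewise found before birth only, at 0.408 RPKM at E14 and 0.331 at E18. It had 0 reads at 3 weeks and 6 months, where 3 reads would be 0.0667 and 0.0633 RPKM. Prss41 (Tessp1) had its highest level, 0.740 RPKM, at 3 weeks and Prss36 its highest, 0.680, at E18. Prss32 reached 0.182 at E14. Prss16, the thymus protease, stayed at or below 0.0603 RPKM, and the 7 thymus markers summed to at most 0.467. The highest levels of Prss27, Prss30 and Prss33 were 0.0235, 0.0298 and 0.0332 RPKM, from at most 2 reads.

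In the order of levels at 6 months, Prss39 and Prss37 stood apart from each other and from the rest, since Prss39 was 1.67 times Prss37 (1.58 to 1.76) and Prss37 1.89 times Prss52 (1.75 to 2.04). Prss52 and Prss55 could not be told apart by counting error (ratio 1.06, 0.976 to 1.16), nor could Prss21 and Prss46 (1.06, 0.964 to 1.17). At 3 weeks Prss39 was 1.90 times Prss21 (1.67 to 2.18), which was 1.28 times Prss46 (1.10 to 1.503). From Prss46 down to Prss53, at 6.96 to 4.17 RPKM, no neighbour in the order of 9 genes differed from the next beyond counting error. The 4 highest genes held 61.5% of the summed RPKM at 6 months and 43.2% at 3 weeks.

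Related families of serine proteases were counted by the same limits, with no filter on the entries counted as higher or lower. The shares over all protein-coding symbols were 14.9% higher and 8.17% lower at 3 weeks than at E18, and 5.90% and 4.87% at 6 months than at 3 weeks. Of these 20462 symbols, 12661 reached 1 RPKM in a library. Of 16 Tmprss entries, membrane proteases, 3 reached 1 RPKM in a library, and 1 was higher and 2 were lower at 3 weeks than at E18. Of 26 Klk entries, the kallikreins, 10 did, 7 of them past 2-fold higher at 6 months than at 3 weeks. Klk1b8 led, at 24.6 RPKM at 6 months and 0 at 3 weeks. Granzymes had 1 of 10, Gzmn, at 4.55 RPKM at 6 months and 0.715 at 3 weeks, and the elastases and mast cell proteases 0 of 3 and 0 of 5. In a list of other testis and sperm serine proteases, 4 of 12 were higher and 2, Htra3 and Htra1, lower at 3 weeks than at E18. The higher ones were led by 1700074P13Rik and by Acr, the acrosomal protease acrosin. This list shares Tmprss12 and some Klk1b entries with the families above and Acr with the acrosome genes below, so the counts are not independent. Acr stood at 0.0984, 0.112, 17.6 and 29.0 RPKM, close to Prss39 at 3 weeks and below it at 6 months. Tmprss12 stood at 0.0475, 0.0720, 9.82 and 3.84 RPKM, so its level was lower at 6 months than at 3 weeks.

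Inhibitors and partners of sperm proteases were also measured, and their counts stand beside the same shares of protein-coding symbols. Of 12 Spink entries, which encode inhibitors of trypsin-like proteases, 2 were higher at 3 weeks than at E18, and 1 was lower. Spink2, an acrosin inhibitor, had 0.0979, 0.222, 92.7 and 50.7 RPKM across the stages, above every Prss gene at 3 weeks. Spink8 had 22.0 RPKM at 3 weeks and is itself among 8 epididymis markers, whose sum of 66.5 RPKM at 3 weeks includes it. Crisp1, at 41.5 RPKM, made up most of the rest. Of the 8, 3 reached 1 RPKM at 3 weeks, and Defb48 and Crisp4 were at 0. At 6 months the 8 summed to 3.06 RPKM, and Rnase10 was higher than at 3 weeks, at 2.28 against 0.0531. The part of epididymis in the level of Spink8 was not tested. Of 15 genes tied to the maturation of the sperm protein ADAM3 and to sperm passage into the oviduct, 10 were higher and 0 lower at 3 weeks than at E18, led by Cmtm2a, with a median difference of 3.93. At 6 months, 5 were higher and 1 was lower than at 3 weeks, and Ace and Calr3 led. Of 13 acrosome genes, 11 were higher at 3 weeks than at E18, with a median difference of 2.02, and 8 were higher at 6 months than at 3 weeks, with a median of 1.49. None of the 13 was lower past the limit in these comparisons. Spaca4 led at 6 months, with 33.1 RPKM against 1.41 at 3 weeks.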

How the data were processed

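The authors deposited RPKM per entry for 4 libraries. Per the submitters' processing notes, TopHat2 was used, with the genome build mm10. Per the labels' protocols, ribosomal RNA was depleted, polyadenylated RNA isolated and a directional kit used. How reads were counted, on which annotation, and whether strand was used is not given in the sources used here. The rule took entries named PRSS and digits. Members and lists were chosen with earlier results of these data known. Every member of at least 1 RPKM in a library is named with its values, the others by their highest. From related families and lists at most 2 genes per direction are named. Marker genes are named if at 0, if among the few that reach 1 RPKM, or to show how a sum is made up. Alternatives were a pseudocount of 0.1, no filter or a minimum of 5 RPKM, a 4-fold limit and rescalings.

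Library totals were taken from the steps of low values in single-exon genes, and whole reads and a model length were then found for 37 of 39 members (tolerance 1e-09, lengths up to 200000 bases; the other 2 are at 0) and for 1000 of 1000 other entries. A common factor of the reads may be lost. Of the lengths, 21 lie within 1% of the GENCODE merged exons. Differences are log2(RPKM + 1), later minus earlier stage, which understates changes of low genes, and 1 or more in size was called. Intervals are exact Poisson (levels) and Clopper-Pearson (ratios) at 95%. Where a level is given for a library at 0, it is that of 3 reads, below the upper end of the 95% interval. Positions are GRCm38, also called mm10. The steps were tested on simulated reads, with levels taken from entries measured in all 4 libraries, so levels near 0 were not covered. The software was Python 3.11.15, numpy 2.4.6, scipy 1.17.1, pandas 2.3.3 and matplotlib 3.10.9. No protein sequences were used here, so the planned comparison of catalytic residues was not run.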

Additional observations from a re-analysis of the deposited data

How the results depend on the processing

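No paired analysis was possible because each stage has 1 library, and for the same reason no library could be left out. Counts under the alternatives are over the Prss genes that pass the minimum, 25 at 1 RPKM, with the shares of all entries that pass it. No difference past 2-fold changed sign under a pseudocount of 0.1 or under 4 rescalings. At 4-fold, 9 Prss genes were higher and 0 lower at 3 weeks than at E18 (16.1% and 1.98% of entries), 5 higher and 0 lower at 6 months than at 3 weeks (3.20% and 1.80%), and 0 higher at E18 than at E14 (0.275%). A minimum of 5 RPKM left 0 lower at 3 weeks (14.9%), 1 higher at E18 (2.87%), and 1 and 0 genes with their highest level at E18 and E14. A pseudocount of 0.1 gave 4 higher at E18 (7.46%) and 2 lower at 6 months (31.0%). With that pseudocount and no filter, over all 39, a setting chosen after seeing the data, 4 were higher and 1 was lower at E18 (5.94% and 4.07%), and 3 were lower at 6 months (20.4%), Prss12, Prss35 and Prss36. Ribosomal protein scaling gave 0 lower at 3 weeks (2.43%), where Prss8 and Prss23 had differences of -0.72 and -0.49, and 1 and 0 genes highest at E18 and E14. With no filter, 9 and 5 genes were highest at 3 weeks and E14. The count highest at 3 weeks was 2 under the median of ratios and 7 when scaled to the protein-coding sum, a setting chosen after seeing the data. Prss38, Prss53 and Prss54 were short of 2-fold at 3 weeks under both of these, and at 6 months Prss21 was short of it under the equal and the protein-coding sum and Prss56 under the protein-coding sum alone. Over the entries of at least 1 RPKM, the median shift in a difference under the rescalings was 0.64 at most, for ribosomal protein genes between 3 weeks and E18. The cause of these changes was not tested. Depth limits genes with few reads: 12 of 39 had fewer than 10 at 6 months and 28 at E18.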
